A study of Mus musculus with 20 samples.

Results

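Cells of interscapular brown adipose tissue (iBAT) of mice were taken here as MAC3 macrophages where they carried Fcgr1, Msr1, Thbs1, F10 and Cxcl10 in sum and lacked the marker genes of the other macrophage types. Fcgr1 encodes a high-affinity IgG receptor, Msr1 a scavenger receptor for modified lipoproteins, Thbs1 thrombospondin 1, F10 coagulation factor X and Cxcl10 an interferon-induced chemokine. Members were chosen cell by cell in the immune lineage-positive (Lin+) libraries. A member had a summed count of at least 4 over the 5 markers and at least 1 over Csf1r, C1qa and C1qb, the receptor for colony-stimulating factor 1 and subunits of complement C1q. It had less than 2 over Gpnmb, Trem2, Atp6v0d2 and Syngr1, less than 2 over Lyve1, Cd209f, Cd209g and Fcna, less than 3 over Mgl2, Lilra5, Slco2b1 and Vcam1, and less than 1 over the lymphocyte genes Cd79a and Cd3e. Of 50165 Lin+ cells that passed the quality limits, 2425 (4.83%) were members. These 22 genes chose the members, so their levels are given as a description and without a test.

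The 10 Lin+ libraries came from stromal vascular cells retained on a magnetic column by antibodies against CD5, CD11b, B220, Gr-1, 7-4 and Ter-119, which also bind lymphocytes, granulocytes and erythroid cells. Each library pooled tissue of 3 to 4 mice aged 8 to 14 weeks, so a library, not a cell, was the replicate. Groups of male C57 mice lived at room temperature (RT), spent 4 days at 6 °C (COLD) or received over 4 days the β3 adrenergic receptor agonist CL316,243 (CL), at 0.75 nmol per hour from a subcutaneous micro-osmotic pump, with 2 libraries per group. Female Adrb1 fl/fl mice without Pdgfra-CreER (WT) or with 1 copy of it (KO) were kept at RT or in COLD with 1 library per group, and all of them, controls included, had received tamoxifen. The Cre is driven by the promoter of Pdgfra, a gene of adipose stromal cells, so members of KO libraries were not the cells targeted for deletion. In Pdgfra-positive Lin- cells, Adrb1 summed to 13 counts in WT RT and 34.4 in WT COLD, and to 0 in both KO libraries. In the Adrb1 line the RT libraries were made with version 3 and the COLD libraries with version 2 of the Chromium kit and on other days, so temperature, kit and day cannot be told apart there. All C57 libraries were made with version 2, and the lines also differed in sex.

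Macrophages of adipose tissue arise from embryonic precursors or from circulating monocytes that enter tissue through CCR2, the receptor of the chemokine CCL2. Type I and type II interferons act through receptors that activate STAT proteins, and type I signalling also forms a complex with IRF9 that binds interferon-stimulated response elements. Such an element holds a pair of GAAA repeats spaced by 2 bases. Genes induced this way include Isg15, a ubiquitin-like modifier, Ifit3 and Rsad2, which act against viral RNA and replication, Irf7, a transcription factor that amplifies the response, and the chemokine Cxcl10.

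Promoter sequences of 4 such genes are shown because these genes marked the members or separated COLD from RT members below. Sequences are the 250 bases before the RefSeq transcription start (GRCm38.p6), written 5′ to 3′ on the strand of the gene, with every match of GAAANNGAAA on either strand in capitals. A match on the other strand reads TTTCNNTTTC, and overlapping matches run together.
Isg15: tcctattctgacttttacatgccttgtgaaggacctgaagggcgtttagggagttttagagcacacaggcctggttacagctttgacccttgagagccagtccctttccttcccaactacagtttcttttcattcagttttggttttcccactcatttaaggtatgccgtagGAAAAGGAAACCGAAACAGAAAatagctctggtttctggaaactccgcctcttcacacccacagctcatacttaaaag
Ifit3: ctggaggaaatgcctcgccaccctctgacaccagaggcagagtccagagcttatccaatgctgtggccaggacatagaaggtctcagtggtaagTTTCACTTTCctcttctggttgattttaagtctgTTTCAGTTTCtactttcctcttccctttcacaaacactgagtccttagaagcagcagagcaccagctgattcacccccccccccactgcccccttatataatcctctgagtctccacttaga
Rsad2: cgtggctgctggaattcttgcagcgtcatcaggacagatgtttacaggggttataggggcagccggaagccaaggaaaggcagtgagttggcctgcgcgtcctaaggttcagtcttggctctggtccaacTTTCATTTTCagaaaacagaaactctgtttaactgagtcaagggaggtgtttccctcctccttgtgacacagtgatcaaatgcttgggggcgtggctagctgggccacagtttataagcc
Cxcl10: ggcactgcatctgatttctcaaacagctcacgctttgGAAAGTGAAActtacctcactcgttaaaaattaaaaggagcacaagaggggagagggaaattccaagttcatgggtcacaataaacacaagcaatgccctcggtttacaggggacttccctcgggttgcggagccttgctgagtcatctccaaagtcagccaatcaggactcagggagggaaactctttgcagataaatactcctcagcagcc

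The Isg15 promoter lay at chr4:156200819-156201068 on the minus strand and held 3 overlapping matches that began 78, 72 and 66 bases before the start. The Ifit3 promoter at chr19:34583279-34583528, plus strand, held 2 matches on the other strand, 156 and 122 bases before the start. Rsad2, at chr12:26456453-26456702 on the minus strand, had 1 match 120 bases before the start, and Cxcl10, at chr5:92348890-92349139 on the minus strand, had 1 match 213 bases before it. Among all 32851 promoters of the table, 978 (2.98%) held the motif. Of the 30 genes of the interferon response list used below, 24 had a promoter in the table, and 11 of these (45.8%) held it. Irf7, Oasl1, Oasl2, Isg20 and Xaf1, which rose in COLD as described below, had a promoter without a match, whereas all 4 sequences shown hold one. A match is a string of letters and was not tested as a binding site.

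The macrophage label was checked against markers that the rule did not use. Adgre1 (F4/80), Cd68, Mertk, C1qc, Lyz2, Itgam and Cd14 were detected in the members of every library, which here means a summed count of at least 0.5. This limit is a weak one, since S100a9, Ighm and Fabp4, markers of other cell types, also met it in every library. C1qc is expressed with the rule genes C1qa and C1qb. The summed level of the macrophage marker list they belong to was 20368 to 36312 CPM (counts scaled to equal library totals), against 797 to 3821 CPM in lymphocytes of the same libraries. Lyz2, also on the list of monocyte genes, reached 33147 CPM in a library, whereas Cd68, Adgre1 and Mertk reached at most 1200, 318 and 30.8 CPM. The sum thus mostly followed Lyz2. In monocyte-type cells, a class defined below, the list summed to 12275 to 31609 CPM and was higher than in members in 6 of 10 libraries, so it separated members from lymphocytes but not from monocyte-type cells. Lymphocytes had already been left out of the members by the rule, through Cd79a and Cd3e. The 16 monocyte genes summed to 33589 to 53069 CPM in members and 22295 to 52081 in monocyte-type cells. The 11 genes by which the study characterised MAC3 (interferon genes such as Irf7 and Isg15, and the C-type lectins Clec4d, Clec4e and Clec4n) were all detected in every library too. They were picked in these samples, so this is not independent evidence.

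Besides these monocyte genes, markers of other cell types were low in members except those of neutrophils and erythroid cells. Summed over their lists, stromal markers reached at most 64.1 CPM, endothelial markers 63.8, dendritic markers 129, T and NK markers 167, B markers 285 and adipocyte markers 299.9 CPM in any library, and Pdgfra was below 0.5 counts in 9 of the 10 libraries. Neutrophil markers (S100a8, S100a9 and 6 others) summed to 2257 and 3852 CPM in C57 RT members, 641 and 1098 in COLD, 2990.4 and 4769.5 in CL and 4044 to 8145 in the Adrb1 line. Haemoglobin genes and Alas2 summed to 3.73 to 21247 CPM, against 303 to 40462 CPM in lymphocytes. The part of these transcripts in the results was not tested.

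Members held 3389 to 6745 counts per cell at the median of a library, and 165 of them (6.8%) were doublet candidates. The marker sum of 4 cut through a continuous range: 422 cells that met every other condition had sums from 3 to below 4, and 328 members had sums from 4 to below 5. Another 6138 cells reached a marker sum of 4 without being members. Of these, 3636 failed on the Gpnmb sum and 2972 on the sum of Csf1r, C1qa and C1qb, and a cell could fail on both. In the Lin- libraries only 4 of 59600 cells (0.00671%) met the rule. Libraries of a pair shared at most 1.22% of the smaller one's barcodes.

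The 5 markers did not contribute alike in every group. Fcgr1 was above 0.5 counts in 51.2, 60.7, 54.2 and 52.9% of RT members (both C57 libraries, then WT and KO), but in 85.7 to 95% of COLD and CL members. The same order held when members were thinned to 2000 counts, which left out those with fewer (at most 23 in a library, WT COLD). There 21.2 to 32.1% of RT members and 58.5 to 82.1% of COLD and CL members had an Fcgr1 count. F10 did not overlap between the lines, at 29.4 to 52.2% in C57 and 66.7 to 81.9% in the Adrb1 line. Thinned to 2000 counts, the lines overlapped, with 16.7 to 37.4% in C57 and 36.4 to 59.7% in the Adrb1 line. Cxcl10 was found in 46.5 and 42.9% of C57 RT and 47.1 and 38.4% of C57 COLD members, and in the Adrb1 line it ranged from 12.5% in WT RT to 48.1% in KO COLD. A C1qa plus C1qb sum of at least 1 was met by 39.5, 53.6, 9.72 and 2.94% of RT members in the same order, by 49.0, 56.2, 45.6 and 27.0% of COLD members and by 66.1 and 53.1% of CL members. Csf1r was above 0.5 counts in 100% of the RT members of the Adrb1 line.

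**Figure D1:**
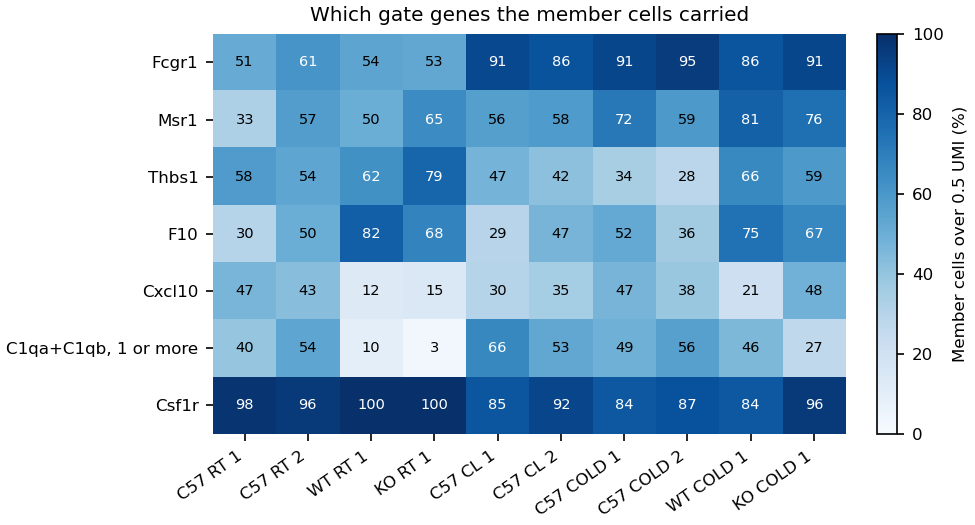
Share of members (percent, colour and printed value) with more than 0.5 counts of each marker, of Csf1r, or with a C1qa plus C1qb sum of at least 1, in each of the 10 Lin+ libraries. Fcgr1 was found in 51.2 to 60.7% of RT members and in 85.7 to 95% of COLD and CL members.

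Members were a larger share of Lin+ cells in the COLD libraries than in their RT counterparts. In C57 mice they were 1.06 and 0.626% of Lin+ cells at RT (exact 95% intervals 0.765 to 1.42 and 0.416 to 0.904, which cover counting error only), 6.11 and 3.57% in COLD (5.58 to 6.67 and 3.12 to 4.06) and 4.34 and 1.88% in CL (3.82 to 4.91 and 1.53 to 2.29). Both COLD and both CL libraries lay above both RT libraries, and COLD and CL overlapped. In the Adrb1 line members made up 2.27% of WT RT and 10.1% of WT COLD cells, and 1.55% of KO RT and 11.2% of KO COLD cells, with 1 library per group.

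Over the 4 RT and 4 COLD libraries the share was 1.38% ± 0.707 (SD, n = 4) and 7.74% ± 3.54 (SD, n = 4), a difference of 6.36 percentage points and a 5.63-fold ratio (two-sided exact permutation test p = 0.0286, as low as 4 against 4 can go). The study named MAC3 a cold-induced cluster in libraries of this series, and cold moved rule genes over all Lin+ cells. Fcgr1 was there at 38.3 and 56.8 CPM in C57 RT and 295 and 255 in COLD. The test thus rests on values of the rule and is not independent evidence. Paired by replicate number or genotype, COLD was higher in 4 of 4 pairs, by 5.79-, 5.70-, 4.43- and 7.23-fold, for which the exact sign-flip test gives its smallest value, p = 0.125. In C57 alone the difference of COLD from RT was 4.00 points (5.75-fold) and that of CL from RT 2.27 points (3.70-fold). An exact permutation test of 2 against 2 cannot go below p = 0.333, which both comparisons gave. As a share of cells with Csf1r, C1qa or C1qb the 4-against-4 difference was 18.7 points (exact permutation p = 0.0571), since the groups then overlapped. Thinning to 2000 counts left out the 15261 cells with fewer, such as 2025 of 4072 in C57 RT 1 and 1289 of 7676 in C57 COLD 1. Among the remaining cells the C57 CL libraries (4.13 and 1.14%) overlapped the RT libraries (1.37 and 0.559%), whereas every COLD library stayed above every RT library.

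Marker transcripts were also found in cells that should lack them. Among lymphocytes, defined by a Cd79a plus Cd3e sum of at least 2, a marker sum of 4 was reached by 0.473 and 0.250% in C57 RT, 4.32 and 1.61% in COLD and 1.86 and 0.570% in CL, and by 1.03, 3.77, 1.40 and 2.08% in WT RT, WT COLD, KO RT and KO COLD. Lymphocytes had 1076 to 2864 counts at the median, fewer than members. The member share exceeded the lymphocyte share in each of the 10 libraries, with the smallest margin in KO RT (1.55 against 1.40%). Like the member share, the lymphocyte share was higher in every COLD library than in every RT library. The part of free RNA in the member shares was not tested.

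**Figure D2:**
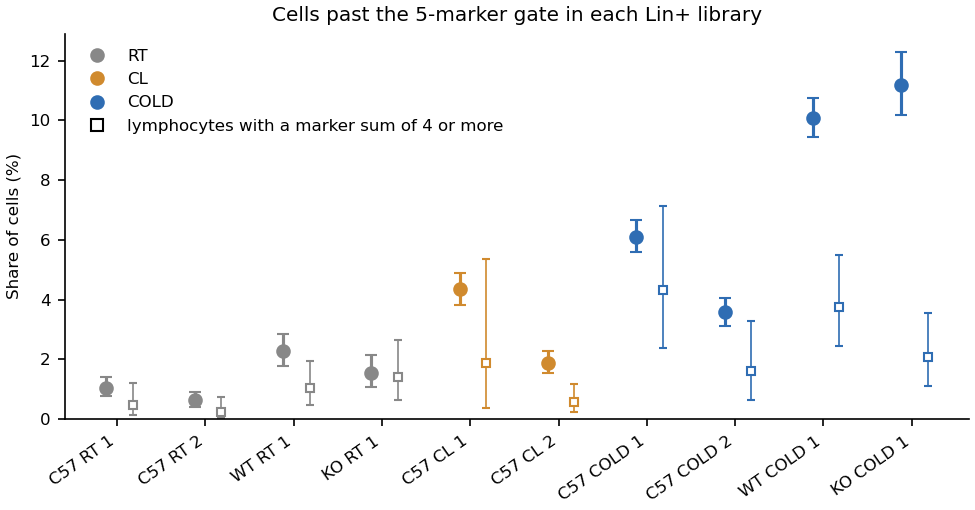
Member share of Lin+ cells (percent, circles) and share of lymphocytes with a marker sum of at least 4 (percent, open squares) in each library, with exact 95% binomial intervals for counting error. COLD libraries held 3.57 to 11.2% members and RT libraries 0.626 to 2.27%.

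Interferon-response transcripts varied widely from member to member. Summed over the 30 listed genes, none of which the rule used, they made up a median of 0.291 and 0.243% of a cell's counts in C57 RT members, 0.615 and 0.467% in CL and 1.05 and 0.929% in COLD. In WT the median was 0.353% at RT and 0.392% in COLD, and in KO it was 0.341% and 0.930%. Thus 3 of the 4 COLD libraries stood apart from all RT libraries, and WT COLD lay close to them. Within C57 COLD 1 the 10th and 90th percentiles were 0.356 and 3.04%. The share of members with at least 1% of their counts in the list was 9.30, 17.9, 8.33 and 11.8% at RT (C57 1, C57 2, WT, KO), 52.2, 44.3, 12.2 and 46.8% in COLD and 25.7 and 20.8% in CL. Thinned to 2000 counts, the median member had 6, 4.5, 7.5 and 7 interferon counts at RT, 21, 18, 8 and 18 in COLD and 12 and 10 in CL, so the order was the same at equal depth.

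Cxcl10 is itself induced by interferon and was part of the rule, so a split of members by it is a description and no finding. COLD members with it had median interferon shares of 1.59, 1.39, 0.700 and 1.47% (C57 1, C57 2, WT, KO), and those without it 0.752, 0.715, 0.358 and 0.542%. In C57 CL 2 and WT RT members with Cxcl10 had the lower median of 0.409 against 0.479% and 0.232 against 0.358%, the latter from 9 cells with Cxcl10.

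Members with and without complement C1q differed in their other genes, compared within the 8 libraries that held at least 10 cells of both kinds and given without a test, because C1q was part of the rule. Monocyte genes were lower in C1q-positive members in 8 of 8 libraries (median ratio 0.681), among them Plac8 in 8 of 8 (median ratio 0.582) and the integrin gene Itgal in 8 of 8 (0.589). MHC class II genes were higher in 8 of 8 (median ratio 2.20), as were lipid handling and lysosome genes (1.27), Adgre1 (1.66), the platelet factor gene Pf4 (8.19) and Ms4a7 (4.19). Interferon genes were higher in 4 of 8 libraries (median ratio 1.02). The depth of C1q-positive members was 1.03 to 1.14 times that of the others.

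**Figure D3:**
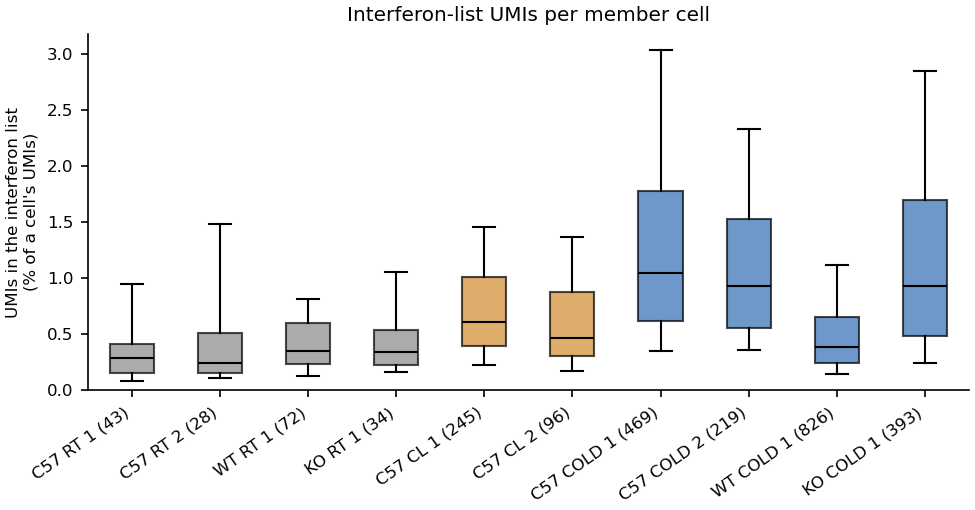
Percent of each member's counts in the 30 interferon-response genes, by library, with the number of members in the labels. Boxes span the quartiles with the median as a line and whiskers reach the 10th and 90th percentiles. Medians were 0.243 to 0.353% at RT, and in COLD 0.392% in WT and 0.929 to 1.05% in the other libraries.

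The difference between COLD and RT members was tested on counts summed over the members of each library. RT and COLD members of C57 met the marker sum through the 5 genes in different proportions. Fcgr1 gave 11.69 and 21.19% of marker counts at RT and 31.05 and 39.11% in COLD. Thbs1 gave 30.65 and 17.01% at RT and 6.255 and 6.309% in COLD. Cxcl10 was alike, with 42.83 and 36.66% at RT and 42.42 and 36.32% in COLD. Whether RT and COLD members were the same type of cell was not tested, nor was the part of this make-up in the calls. Adjusted p-values here and below come from edgeR's quasi-likelihood test with Benjamini-Hochberg adjustment over all genes tested, and levels are CPM scaled by TMM within each comparison, so a library's level differs a little between comparisons. In C57, 67 of 6962 genes (0.962%) passed the test between COLD and RT, 35 higher (0.503%) and 32 lower (0.46%). The interferon genes led: 15 of 29 tested were higher and none lower, all 29 had a positive log2 fold change, and the median was 1.67 against 0.04 over all genes. The list shares Isg15, Irf7, Ifit3, Rsad2, Ifi204, Ifi207, Ifi209 and Slfn2 with the genes by which the study characterised MAC3. The study picked these in the same samples and named MAC3 cold-induced, so their direction, here and below, is not independent evidence. The chemokine genes Ccl2, Ccl7 and Ccl9 and the complement receptor gene C5ar1 were higher as well, and Cd163, Slc40a1, Cxcl9 and Ccl8 were lower.

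Isg15 was at 358 and 437 CPM in the RT libraries and at 1884 and 1304 in COLD. The groups did not overlap, and COLD was 4.01-fold higher (log2 fold change 2.00 ± 0.32 SE, adjusted p = 0.0216). Ifit3 was at 68.3 and 129 CPM at RT and 495 and 581 in COLD (log2 fold change 2.46 ± 0.33 SE, adjusted p = 0.0133). Again the COLD values exceeded the RT values. Rsad2, with 142 and 187 CPM at RT and 700.2 and 459 in COLD, rose 3.54-fold (adjusted p = 0.0283), and Irf7, with 284 and 328 at RT and 947 and 1001 in COLD, rose 3.18-fold (adjusted p = 0.0231). Oasl1, a regulator of Irf7 translation, and Usp18, which removes the ISG15 modifier from proteins, rose by 2.76 and 2.42 on the log2 scale. Ifi204, a nucleic acid sensor of the IFI200 family, rose by 1.42 (adjusted p = 0.0452, and 0.0516 with replicate number as a block). The other members of the list that passed were Oasl2, Oas3, Mx1, Zbp1, Rtp4, Bst2, Isg20 and Xaf1, with 1.54 for Bst2, which tethers virus particles. Ifi207, Ifi209 and Slfn2 had log2 fold changes of 0.89, 1.41 and 0.48 and did not pass. Of the 15 genes that rose, 10 had a promoter in the RefSeq table and 5 of these held the GAAANNGAAA motif, Isg15, Ifit3 and Rsad2 among them.

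Slfn4, a myeloid gene of the Schlafen family, had no count in the 2 RT libraries and 194 and 154 CPM in COLD. Against a floor of 3 counts over the RT group it was at least 21.4-fold higher (adjusted p = 0.00612). BC147527 (adjusted p = 0.0468, and 0.0516 with the replicate block) had 1 count at RT and 166 in COLD, a ratio of 16.8 with a counting interval of 2.97 to 666. Emp1 and Ly6a rose by 3.73 and 3.52 on the log2 scale, and Ifi206 by 2.56. Ly6a encodes the surface protein Sca-1.

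Among chemokine ligands 3 of 16 rose and 2 fell. Ccl2, the CCR2 ligand that recruits monocytes, was at 347 and 424 CPM at RT and 2649 and 2442 in COLD (log2 fold change 2.72 ± 0.36 SE, adjusted p = 0.0133). Ccl7, another CCR2 ligand, was at 273 and 199 CPM at RT and 2271 and 1453 in COLD (log2 fold change 2.97 ± 0.57 SE, adjusted p = 0.034). Ccl9 rose 2.69-fold, from 871 and 971 to 2632 and 2316 CPM (adjusted p = 0.0434, and 0.0523 with the replicate block). The RT and COLD values of these 3 ligands did not overlap. Cxcl9, a ligand of CXCR3 that interferon gamma induces, moved the other way, from 353 and 347 CPM at RT to 39.4 and 33.2 in COLD (log2 fold change -3.25 ± 0.59 SE, adjusted p = 0.0264). Ccl8 was at 222 and 547 CPM at RT and 66.3 and 33.2 in COLD (log2 fold change -2.91 ± 0.55 SE, adjusted p = 0.0313). The direction of Ccl8 depended on the marker rule, since with Cxcl10 left out of the marker sum its log2 fold change was 3.56 (adjusted p = 0.116). Ccl6, Ccl4 and Cxcl2 had log2 fold changes of 0.68, 1.00 and 0.77 and did not pass.

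Of 12 chemokine and chemoattractant receptors 1 passed. C5ar1, the receptor of complement C5a, was at 131 and 116 CPM at RT and 632 and 549 in COLD (log2 fold change 2.26 ± 0.40 SE, adjusted p = 0.0243). C3ar1 had a log2 fold change of 1.93 (adjusted p = 0.0516, and 0.0295 with the replicate block), and Ccr2 one of 0.22. None of 10 C-type lectins passed, with Clec4d, a receptor that signals through the Fc receptor gamma chain, nearest at 2.13 (adjusted p = 0.0516, and 0.0155 with the replicate block).

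The lowest log2 fold change among the named genes was that of Cd163. This scavenger receptor for haemoglobin had 9 counts over the RT members and 3 over the far more numerous COLD members, a ratio of 29.7 to the RT side (counting interval 7.41 to 171, adjusted p = 0.0231). Slc40a1, the iron exporter ferroportin, was at 11.4 and 96.5 CPM at RT and 2.57 and 3.41 in COLD (log2 fold change -4.12 ± 0.85 SE, adjusted p = 0.0468). Dnase1l3, G0s2, Abca7 and Cd81 fell by 4.55, 3.25, 3.20 and 2.49 on the log2 scale. None of the 7 MHC class II genes passed, although all 7 log2 fold changes were negative (median -0.81). Cd74, the invariant chain, was at 18185 and 16966 CPM at RT and 7702 and 12371 in COLD, without overlap (adjusted p = 0.196).

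Other lists held few calls. Plin2, the coat protein of lipid droplets, was the 1 gene of 21 for lipid handling and lysosome that rose. Of 16 monocyte genes Ms4a6d rose and Itgal fell. Of 16 Fc, scavenger and pattern receptors Cd163 fell, of 15 haem and iron genes Slc40a1, and of 9 resident macrophage genes Ccl8. No gene passed of 15 for coagulation and matrix, 16 for cytokines and inflammatory enzymes, 15 for glycolysis and hypoxia, 7 for growth factors, 11 for cell cycle and 12 for dissociation and immediate early genes. The cell cycle genes Birc5 and Top2a had 2 and 3 counts over all RT members, which limits what could be seen. Fn1, which encodes fibronectin, had a log2 fold change of -1.95 (adjusted p = 0.0595).

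The RT libraries held 43 and 28 members. A C57 fit with 1 library left out has an arm of 1 library, which is assumed to vary like the other groups, from which the spread is then taken, so its counts of calls are also those of a smaller design. Without C57 RT 1 there was 1 call and without C57 RT 2 none (unadjusted p under 0.05 for 966 and 1196 genes), without C57 COLD 1 there were 22, and the interferon genes called were 0, 0 and 4 of 30, with medians of 1.53, 1.71 and 1.61. In members with a C1qa plus C1qb sum of at least 1, a restriction chosen after seeing that C1q differed between groups, 9 of 29 interferon genes rose (median 1.73), and with Cxcl10 left out of the marker sum 11 did. In lymphocytes of the same libraries the summed interferon level was 860.2 and 899 CPM at RT and 2141 and 2218 in COLD. In members it was 3771 and 4624 CPM at RT and 12970 and 11172 in COLD. The part of free RNA in the members' difference was not tested.

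**Figure D4:**
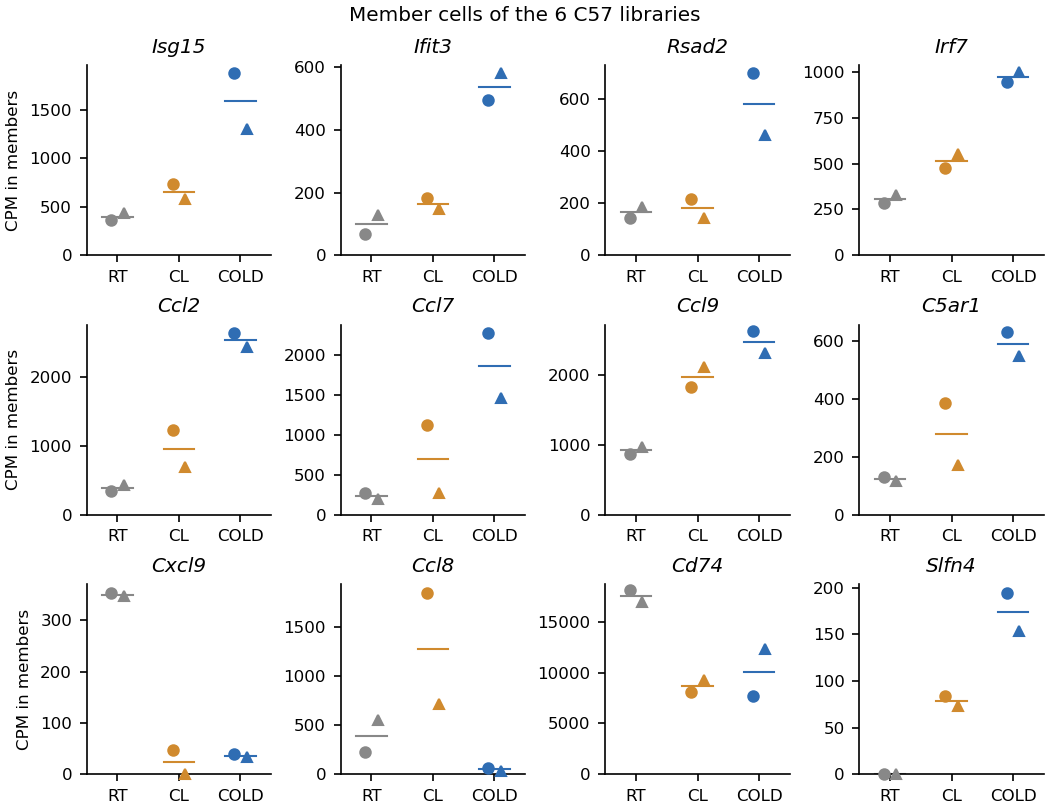
Levels (CPM, linear axes from 0) of 12 genes in members of the 6 C57 libraries, with replicate 1 as a circle, replicate 2 as a triangle and the group mean as a line. Isg15, Ifit3, Rsad2 and Irf7 were higher in both COLD libraries (1884 and 1304 CPM for Isg15) than in both RT libraries (358 and 437), with CL at 737 and 577.

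The study infused CL to learn whether activating brown adipocytes through the β3 receptor is enough for new brown adipocytes to form. Members of the CL libraries are compared here with RT members. Between CL and RT members 0 of 6962 genes (0%) passed the test by edgeR, 696 had an unadjusted p under 0.05, DESeq2 called 28 and the fit with replicate number as a block called 4. Isg15 was at 737 and 577 CPM in CL, Ifit3 at 182 and 147 and Irf7 at 478 and 550.3. Each of these CL values lay above both RT values and below both COLD values, but Rsad2, at 214 and 144 CPM in CL, overlapped RT (0.14 on the log2 scale, adjusted p = 0.939). Of 29 interferon genes 26 had a positive log2 fold change against RT, with a median of 0.69 (all genes 0.05). Ccl2 was at 1236 and 687 CPM, above both RT values, and Ccl7 at 1127 and 273, of which the second was level with C57 RT 1. The comparisons of COLD and of CL with RT share the RT libraries. MHC class II genes were all negative, with a median of -0.80. Leaving out C57 CL 1 or C57 CL 2 gave 10 and 112 calls, so the count depended on single libraries.

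COLD and CL members differed at 38 of 6962 genes (0.546%), 17 higher in COLD (0.244%) and 21 lower (0.302%), and with replicate number as a block at 83. The balance of directions varied, with 32 higher and 20 lower by DESeq2, 36 and 17 without C57 COLD 2 and 30 and 63 without C57 CL 2. Of 29 interferon genes 5 were higher in COLD (Ifit3, Rsad2, Oasl1, Usp18 and Isg20), all 29 had a positive log2 fold change, and the median was 0.81. Ifit3, at 182 and 147 CPM in CL and 495 and 581 in COLD, differed by 1.70 ± 0.28 SE on the log2 scale (adjusted p = 0.0262), and Rsad2, at 214 and 144 in CL and 700.2 and 459 in COLD, by 1.69 (adjusted p = 0.0344). COLD members also had more Nr1h3, the oxysterol receptor LXR alpha (2.52), more Slamf7 and Slamf8 (2.08 and 2.45) and more Ass1 (2.03), an enzyme of arginine synthesis. Lipg had 90 counts in COLD and 2 in CL, a ratio of 19.9 (5.36 to 167).

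Of 9 resident macrophage genes Ccl8 and Folr2 were lower in COLD than in CL members, and none was higher. With replicate number as a block Selenop, the gene of a selenium carrier protein on this list, passed as well (-1.98, adjusted p = 0.0448, and 0.056 without the block). Ccl8 was at 1839 and 711 CPM in CL and 66.3 and 33.2 in COLD (log2 fold change -4.65, adjusted p = 0.00677). Cd163 had 43 counts in CL and 3 in COLD, a ratio of 32.3 (10.3 to 163). Mrc1, the mannose receptor gene, passed as well, as did Fcrls (-2.76), Ltc4s (-3.67) and the NAD-consuming ectoenzyme gene Cd38 (-3.58). The collagen gene Col3a1 fell by 3.07 on the log2 scale, and stromal markers summed to 48.0 and 64.1 CPM in CL members and 10.8 and 5.63 in COLD members. Lrg1, Ifitm1 and Prtn3, a proteinase gene of neutrophil granules, were lower too (-5.80, -4.66 and -3.53), and the neutrophil markers summed to 2990.4 and 4769.5 CPM in CL and 641 and 1098 in COLD members. The part of these transcripts was not tested. Leaving out 1 library at a time gave 19 calls without C57 COLD 1 and 93 without C57 CL 2.

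With the Adrb1 line added, 4 RT and 4 COLD libraries were compared with line (C57 or Adrb1 line) as a term. Here 2004 of 6645 genes (30.2%) passed, 863 higher (13%) and 1141 lower (17.2%), and 1263 with pairs as a block. The balance of directions turned in the fit with no filter on low counts (1539 higher, 997 lower) and in the Adrb1 line alone (1772 and 1602). In the Adrb1 line RT members came from version 3 of the kit and COLD members from version 2. Kit version as a term leaves the contrast to the C57 libraries, and with it 284 genes passed, 94 higher (1.41%) and 190 lower (2.86%). Calls with this term and calls in C57 alone, given side by side below, thus rest on the same contrast and are not separate checks. In the Adrb1 line alone 3374 genes passed, against 67 in C57 alone. The make-up of members changed there too, since 9.72% of WT RT and 2.94% of KO RT members were C1q-positive, against 45.6 and 27.0% in COLD. The part of this change in the calls was not tested. The median log2 fold change of the 29 interferon genes was 1.67 within C57 and 1.51 within the Adrb1 line, where WT and KO differed. Their summed level in members was 4832 CPM in WT RT and 5390.3 in WT COLD, and 5011 in KO RT and 12272 in KO COLD. Dissociation and immediate early genes, which enzymatic digestion induces, summed to 11638 and 11575 CPM in WT RT and KO RT, and to 6771 to 8278 in the other libraries. Without WT RT the count was 884, without WT COLD 1173, without KO RT 1209 and without KO COLD 1193.

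Interferon genes were higher at 22 of 29 over the 8 libraries and lower at none, with a median log2 fold change of 1.47 (all genes -0.02). With kit version as a term 8 of 29 passed. Isg15 was at 377, 458, 147 and 278 CPM at RT and 1962, 1366, 580.1 and 1987 in COLD (C57 1, C57 2, WT, KO in both). The change passed the test (log2 fold change 2.30 ± 0.38 SE, adjusted p = 0.00137). The WT COLD value was the lowest of the COLD libraries. Without the KO COLD library the median over the list was 0.97 and 14 genes passed.

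Chemokine genes were higher at 9 of 15 and lower at 1. Ccl2 was at 365, 445, 62.6 and 54.9 CPM at RT and 2758, 2556, 3672 and 4245 in COLD (log2 fold change 4.30 ± 0.60 SE, adjusted p = 6.04e-04). All COLD libraries lay above all RT libraries. Ccl7 was at 287, 209, 5.53 and 0 CPM at RT and 2365, 1522, 2526 and 2135 in COLD (log2 fold change 5.06 ± 0.89 SE, adjusted p = 0.00189), again without overlap. Ccl3, Ccl4, Ccl5, Ccl6, Ccl9, Ccl12 and Cxcl2 were the other ligands that rose, Ccl3 by 1.02 and Ccl12 by 2.81 on the log2 scale, and Cxcl9 fell by 1.82. WT went the other way for Cxcl9, which on the plain CPM scale was at 8.45 (counting interval 2.30 to 21.6) in WT RT and 23.7 (19.2 to 28.9) in WT COLD, and at 29.1 (11.7 to 59.9) in KO RT and 20.2 (15.1 to 26.4) in KO COLD. Of the 10 ligand calls 4 passed with kit version as a term as well. Of the 12 receptors 8 rose, C5ar1 by 3.22 and C3ar1, Fpr1 and Ccr1 among the others, and Cx3cr1, the fractalkine receptor, fell by 1.25. The C-type lectins Clec4n, Clec4d, Clec4e and Clec4a1 rose, by 2.52, 2.13, 1.49 and 0.77, 4 of 10 tested. Of these 4 calls 2 also passed with kit version as a term and 0 in C57 alone, and of the 9 receptor calls 4 and 1.

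Lipid and lysosome genes were higher at 10 of 21 and lower at 2. Spp1, which encodes osteopontin, was at 23.9, 47.2, 11.1 and 0 CPM at RT and 1355, 346, 1473 and 1791 in COLD (log2 fold change 6.24 ± 0.70 SE, adjusted p = 2.64e-04). It had counts in 3 of 4 RT libraries, all below every COLD library. Fabp5, a fatty acid carrier, Plin2, Lgals1, the cathepsin genes Ctsb, Ctsd and Ctsl, and Cd68 rose as well, Ctsb by 1.37, whereas the cholesterol exporter gene Abca1 and Pltp fell. The study listed Spp1, Fabp5, Plin2 and these cathepsin genes for MAC1. MAC1-type cells, defined below, numbered 14, 16, 6 and 8 at RT and 1720, 1174, 532 and 121 in COLD (C57 1, C57 2, WT, KO). The part of their free RNA, or of members just under the Gpnmb limit, was not tested. Glycolysis and hypoxia genes were higher at 7 of 14 and lower at 1 (Hk2, a hexokinase gene), the former with Ldha (1.71), Pkm (1.09) and Aldoa (0.97). Haem and iron genes were higher at 5 of 15, including Hmox1, haem oxygenase 1, and the ferritin genes Fth1 (1.30) and Ftl1 (1.12). Among all genes 13% were higher and 17.2% lower. Of the 12 lipid and lysosome calls 5 also passed with kit version as a term and 1 in C57 alone, of the 8 glycolysis and hypoxia calls 2 and 0, and of the 5 haem and iron calls 1 and 0. With pairs as a block the adjusted p was 0.0595 for Aldoa, 0.0543 for Fth1 and 0.1 for Ftl1.

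Cytokine genes were higher at 7 of 15 and lower at 2. Il10, an anti-inflammatory cytokine, had 2 counts over the RT members and 414 over the COLD members, a ratio of 21.5 (5.92 to 178). Gdf3 had 3 and 587 counts, a ratio of 20.4 (6.93 to 99.0), and Gpr171 had none at RT and was at least 7.94-fold higher against a floor of 3 counts over the RT group. Il1rn, the interleukin 1 receptor antagonist, Tnf, Il18, Osm, Tgfbi and Chil3 were the other cytokine genes that rose, and Ptgs2 and Nlrp3 fell. Of these 9 calls 1 also passed with kit version as a term and 0 in C57 alone. Among the growth factors Gdf15 and Metrnl rose by 2.77 and 1.60 and Pdgfb fell. Retnla, a marker of alternative activation, fell by 3.32 and Fn1 by 1.74 on the log2 scale. Of 7 MHC class II genes Ciita, their transactivator, and H2-DMa fell, and summed MHC class II levels did not overlap between the lines, at 18219 to 37192 CPM in C57 and 6133 to 7716 in the Adrb1 line. Cell cycle genes rose at 2 of 6 (Top2a and Stmn1). With pairs as a block the adjusted p was 0.0748 for Tgfbi and 0.0544 for Stmn1, and Birc5, which did not pass without the block (adjusted p = 0.061), passed with it (2.34 on the log2 scale, adjusted p = 0.0167). With kit version as a term 0 of the 2 cell cycle calls passed.

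The study deleted Adrb1 in stromal cells to test its part in their proliferation in the cold. Members of the WT and KO libraries are described here. With 1 library each there was no test, and intervals below cover counting error only. Isg15 was at 169 (134 to 210.4) CPM in WT RT and 549.9 (528 to 573) in WT COLD, and at 316 (249 to 395) in KO RT and 1810.1 (1759 to 1862) in KO COLD. Ifit3 was at 84.5 (60.4 to 115) CPM in WT RT and 99.8 (90.4 to 109.9) in WT COLD, and at 133 (91.0 to 188) in KO RT and 531 (504 to 560.0) in KO COLD. Irf7 was at 266 (222 to 317) and 307 (290.4 to 324) CPM in WT RT and WT COLD, and Ifi204 at 519.9 (457 to 589) and 507 (485 to 529). The intervals of WT RT and WT COLD overlapped for Ifit3, Irf7 and Ifi204 and not for Isg15. Of 29 interferon genes 23 were over 2-fold higher in KO COLD than in WT COLD and 0 were over 2-fold lower (all genes: 90 of 5239, 1.72%, and 50, 0.954%), with a median log2 ratio of 1.16. The rule gene Cxcl10, itself induced by interferon, was found in 48.1% of KO COLD and 21.2% of WT COLD members, and the median interferon share was 0.930 against 0.392% over all members and 0.542 against 0.358% over members without Cxcl10. How much of the difference the rule set was not tested. Of 16 chemokine ligands 0 were over 2-fold higher and 4 over 2-fold lower in KO COLD. Ccl2 was at 3480.3 (3424 to 3538) CPM in WT COLD and 3866 (3791 to 3942) in KO COLD, and C5ar1 at 672 (647 to 697) and 647 (617 to 679). The summed interferon level of members was 5390.3 CPM in WT COLD and 12272 in KO COLD. The KO COLD value of members was close to the C57 COLD values of 12970 and 11172, and the WT COLD value lay nearer the RT values of 3771 to 5011. Whether these differences belong to genotype or to the libraries cannot be told apart.

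Monocyte-type cells (971 in all) carried Ly6c2, Ccr2, Plac8 or Hp and Csf1r without C1q and with a marker sum under 2. Their cold response is set beside that of members over the same 8 libraries as a description with no test, because expression chose both classes and cold moved genes of the rule. Over all Lin+ cells Fcgr1 was at 38.3 and 56.8 CPM in C57 RT and 295 and 255 in COLD, and a cell that gained it could leave the monocyte-type class. Of 5822 genes 202 (3.47%) had a response over 2-fold higher in members and 251 (4.31%) one over 2-fold lower. All 7 MHC class II genes were over 2-fold lower (median log2 difference -1.44), which the C57 pairs carried. There the summed level of these genes was 6824 and 7514 CPM in RT and 19691 and 28695 in COLD monocyte-type cells, against 36128 and 37192 in RT and 18219 and 31743 in COLD members. In WT and KO both classes were higher in COLD, monocyte-type cells at 6035 and 3905 CPM in RT and 10039 and 5017 in COLD, and members at 6133 and 6955 in RT and 7716 and 7652 in COLD. Of 21 lipid and lysosome genes 8 were over 2-fold higher and 2 lower, and of 14 haem and iron genes 1 was higher. Haemoglobin genes and Alas2 summed in monocyte-type cells to 7457, 20.1, 2145 and 5.77 CPM at RT (C57 1, C57 2, WT, KO) and to 896, 54811, 15911 and 26993 in COLD, so they were higher in COLD in 3 of 4 pairs. Their part in these differences was not tested.

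Fabp5 was at 136, 277, 99.8 and 41.0 CPM in RT members and 947, 412, 997 and 519.7 in COLD members (C57 1, C57 2, WT, KO). In monocyte-type cells it was at 89.2, 78.6, 112 and 49.5 at RT and 46.6, 53.9, 65.5 and 81.8 in COLD. Every COLD member value exceeded every RT member value, and the monocyte-type values overlapped (difference of log2 responses 2.98 ± 0.39 SE). Hmox1 was at 197, 312, 84.8 and 89.3 CPM in RT members and 788, 432, 1499 and 1401 in COLD members, and in monocyte-type cells at 283, 371, 86.0 and 144 at RT and 135, 80.8, 216 and 465 in COLD. Its responses differed by 2.64 ± 0.26 SE on the log2 scale. The difference was 2.21 for Pparg, the lipid-sensing nuclear receptor, 2.34 for Ccl2, and 2.41 for Fabp4, which the authors had used to estimate free RNA. Of 29 interferon genes 13 had a response over 2-fold higher in members and 0 one over 2-fold lower, with a median difference of 0.81 (all genes -0.01). It was 1.42 for Isg15 and 0.72 for Irf7. The interferon-induced Cxcl10 was part of the marker sum that split the 2 classes, and its part in these differences was not tested. These values rest on the same RT libraries and kit versions as above.

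Members were finally described beside 3 other myeloid classes of the same libraries, with no test, because expression chose both sides. MAC1-type cells (5077) carried the lysosomal and lipid-associated genes Gpnmb, Trem2, Atp6v0d2 and Syngr1, and resident-type cells (2549) the Lyve1 or Mgl2 genes. No gene of a rule is counted, but the marker sum that members needed included the interferon-induced Cxcl10. How far the rules set the interferon differences below was not tested. Beside MAC1-type cells, 454 of 9047 genes (5.02%) were over 2-fold higher and 402 (4.44%) over 2-fold lower in members of the 6 COLD and CL libraries, the others holding under 20 MAC1-type cells. Of 16 monocyte genes 13 were over 2-fold higher. Plac8 ranged from 3512 to 6041 CPM over the libraries in members and from 135 to 1108 in MAC1-type cells (log2 fold change 3.93 ± 0.32 SE), and Ly6c2 and Vcan, a matrix proteoglycan gene, had log2 differences of 3.44 and 3.98. All 3 were higher in members in 6 of 6 libraries. Il1b, a pyrogenic cytokine, and Ccr2 had differences of 2.81 and 1.98. All 30 interferon genes were on the higher side in members (median 1.15, 23 over 2-fold). Of 21 lipid and lysosome genes 14 were over 2-fold lower in members. Ctsk, a collagen-degrading cathepsin, Mmp12 and Igf1 had log2 differences of -3.32, -3.18 and -3.03, lower in members in 6 of 6 libraries.

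Beside monocyte-type cells, 150 of 4948 genes (3.03%) were over 2-fold higher and 78 (1.58%) over 2-fold lower in members of all 10 libraries. C1qc, which the rule did not name but which is expressed with C1qa and C1qb, had the largest difference of the named genes (5.52), followed by Ccl8 (4.67), Ms4a7 (3.19), Pf4 (3.13) and C3ar1 (3.12). All 26 interferon genes tested were on the higher side (median 1.27), with differences of 2.98 for Ifit3 and 2.32 for Isg15. Members needed a marker sum of at least 4 and monocyte-type cells one under 2, and the sum held the interferon-induced Cxcl10. The rules were thus not neutral to this direction. Chemokine ligands were over 2-fold higher at 8 of 11. Ace, Spn and Treml4, which are known from patrolling Ly6C-low monocytes, had log2 differences of -2.20, -1.77 and -1.69. Monocyte genes over 2-fold higher and lower were 2 and 1 of 12.

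Beside resident-type cells, 310 of 7480 genes (4.14%) were over 2-fold higher and 461 (6.16%) over 2-fold lower in members of the 10 libraries. Monocyte genes were over 2-fold higher at 15 of 16, with Ly6c2 at 516 to 1998 CPM in members and 17.9 to 166 in resident-type cells (log2 fold change 4.10 ± 0.22 SE) and higher in 10 of 10 libraries. Chil3, a chitinase-like protein of recruited myeloid cells, had a log2 difference of 4.22. All 29 interferon genes were on the higher side (median 1.45, 21 over 2-fold). MHC class II genes were over 2-fold lower at 5 of 7 and cell cycle genes at 10 of 11. Timd4, a phosphatidylserine receptor, Cd163, Folr2 and Gas6 had differences of -4.94, -4.73, -3.73 and -3.95.

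**Figure D5:**
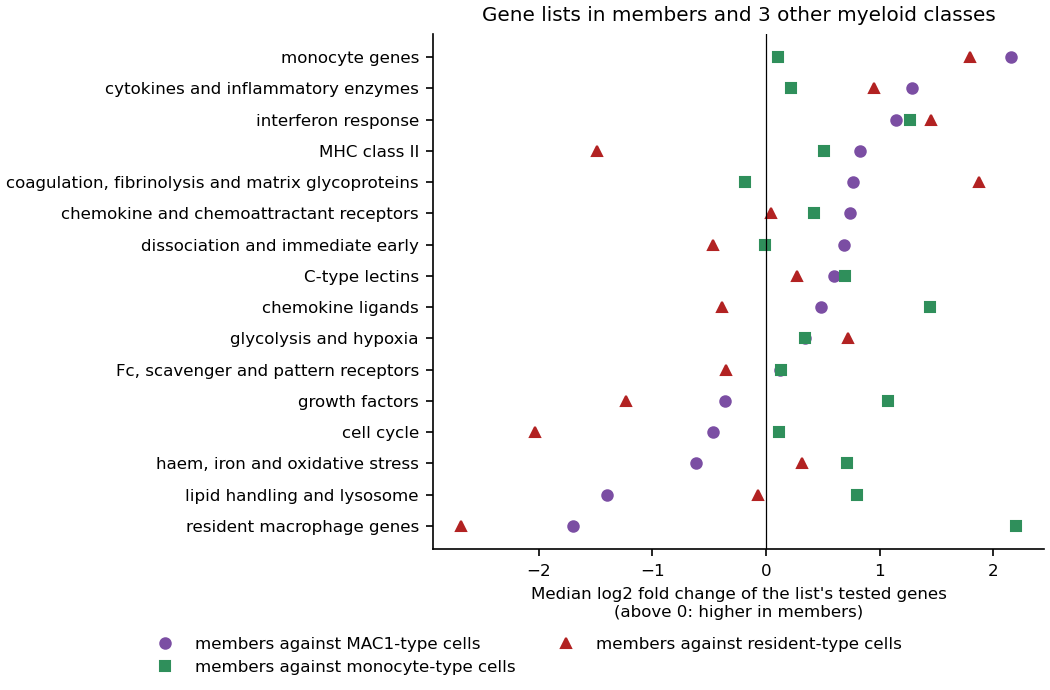
Median log2 fold change of the tested genes of each of 16 lists between members and MAC1-type (circles), monocyte-type (squares) and resident-type cells (triangles), with values above 0 higher in members. Interferon response medians were 1.15, 1.27 and 1.45, and those of lipid handling and lysosome -1.40, 0.80 and -0.07.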

How the data were processed

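The study measured single-cell RNA-seq of Lin+ and Lin- stromal vascular cells of mouse iBAT. The deposited values are expected counts. The authors made them from Cell Ranger 3.0.1 UMI tables (mm10, per the submitters' notes) by subtracting free RNA with SoupX, using Fabp4 and Car3 as genes these cells should lack, so 97.6 to 99.5% of the non-zero entries were not whole. Depth was 9111430 to 40242900 counts in the kept cells of a Lin+ library and 159737 to 4139040 in its members. Cells were kept with under 10% mitochondrial counts, under 15000 counts and 500 to 4000 genes (50165 of 67122 barcodes). Member identities and gene lists were chosen with earlier results of these data known.

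Counts were summed per library over members, rounded and fitted with edgeR 4.0.16 (R 4.3.3; quasi-likelihood, TMM, filterByExpr, two-sided, Benjamini-Hochberg, threshold 0.05), with DESeq2 1.42.0, RLE scaling, no filter, no doublet candidates (top 6% of Scrublet scores, Scanpy 1.11.5), Cxcl10 left out, a replicate block and left-out libraries as alternatives. C1q-positive members, a kit term and the Adrb1 line alone were added after seeing the data. Shares were compared with exact permutation tests (SciPy 1.17.1). The fits were tested on simulated counts. The comparisons with other classes, that of the cold response included, all planned as tests, are given as descriptions, because expression of the same cells chose both classes. Named genes were, in each comparison, the 10 highest and 10 lowest log2 fold changes past the threshold with at least 20 CPM and no overlap of libraries, the 4 most abundant genes of each list and the 11 genes by which the study characterised MAC3, leaving out rule, mitochondrial, ribosomal, Gm and Rik genes; other genes of a list that passed were named after their values were seen. Per the methods, C57 libraries with the same number come from the same replicate experiment, so numbers pair them; the correlations of their deviations were 0.10 (RT and COLD), -0.03 (RT and CL) and 0.13 (COLD and CL) over 6976 genes. Chi-square values of C57 replicate pairs, divided by their degrees of freedom, were 3.28 to 9.77, so each was counted as its own library. A few genes are not reported here.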

Additional observations from a re-analysis of the deposited data

Results flagged for a closer look

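Among the RT libraries the summed level of the 16 monocyte genes in members was 50976 CPM in C57 RT 2, against 33589 to 36294 CPM in the other 3, a gap large enough to mark it as far from the rest by Dixon's criterion for 4 samples. Of 36 such groups of 4 libraries tested this was the 1 marked, and chance alone marks about 1 in 20.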

How the results depend on the processing

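Of 3441 alternative values for 277 results, 3078 kept their direction and their side of the threshold, or stayed within 1.5 times for counts. The cause of the other values was not tested. The values kept include those of named genes that were not called and stayed so, 401 between C57 COLD and RT members with all libraries in. Genes called there had 154 values that kept, 25 that were weaker and 1 that reversed. With 1 library left out, more values of these called genes were weaker than kept. The rise of the member share over 4 libraries each was 6.36 points with p = 0.125 under the replicate block (exact sign-flip test), 18.7 points with exact permutation p = 0.0571 among macrophage-lineage cells and 5.21 to 7.75 points with 1 library left out. Genes called between C57 COLD and RT members were 464 without a filter on low counts, 196 by DESeq2, 41 in C1q-positive members and 0 to 77 with 1 library left out. Between CL and RT they were 149 without the filter, 28 by DESeq2, 2 with Cxcl10 left out, 4 under the block, 2 in C1q-positive members and 0 to 112 with 1 library left out. Between COLD and CL they were 337, 83 under the block and 19 to 93. Over 8 libraries the count was 1263 with pairs as a block, 284 with a kit term, 3374 in the Adrb1 line alone and 884 to 2456 with 1 library left out. Without the filter 4458, 3039 and 4189 genes were over 2-fold different from MAC1-type, monocyte-type and resident-type cells, and 6058 had a cold response over 2-fold different from that of monocyte-type cells. Direction reversed for Ccl8 between C57 COLD and RT with Cxcl10 left out (3.56), and over 8 libraries for Plaur (0.81) and Cd74 (0.79) in the Adrb1 line alone (log2). Beside these counts over all genes, among the named genes alone the block moved 16 calls on 15 genes across the threshold, 11 out and 5 in. The restriction to C1q-positive members, the kit term and the Adrb1 line alone were chosen after seeing the data. The fewest members summed were the 28 of C57 RT 2.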
